A study of Mus musculus with 4 samples.

Results

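Cyclic AMP and cyclic GMP are second messengers that carry hormone signals through the heart muscle cell. Adenylyl cyclases make cyclic AMP below beta-adrenergic and other G protein-coupled receptors, and guanylyl cyclases make cyclic GMP in response to nitric oxide or natriuretic peptides. Protein kinases A and G (PKA and PKG) read these messengers, A-kinase anchoring proteins (AKAPs) hold PKA beside its substrates, and phosphodiesterases (PDEs) break the messengers down. In heart the pathway is known for setting beat rate, calcium cycling and the force of contraction.

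The genes described here are those whose mouse symbol marks them as numbered PDE genes with a subtype letter of a to d or none, numbered adenylyl cyclases, PKA and PKG subunits, guanylyl cyclases of the Gucy series or numbered AKAPs. They were taken by symbol. There were 65 of them among 18781 named genes: 23 PDE genes, 10 adenylyl cyclases, 2 catalytic and 4 regulatory PKA subunits, 2 PKG genes, 9 Gucy genes and 15 AKAP genes. Each had 1 probe set, so the value of a gene does not separate its transcript isoforms.

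The study measured atria and ventricles of adult Mef2a knockout mice (Mef2a-/-) and wild type mice (Mef2a+/+) at 2 months of age. MEF2A is a transcription factor that drives genes of heart and skeletal muscle. The 4 groups were knockout (KO) atria, wild type (WT) atria, KO ventricles and WT ventricles, each with 1 array that carried RNA pooled from 7 mice of both sexes. The strain, the part of Mef2a that was deleted, and whether both chambers came from the same mice are not stated in the labels. With a single array in each group there was no spread between replicates to compare a difference within 1 chamber or 1 genotype with, so those ratios have no test and describe these pools. A fit over all 4 arrays, given further on, asks what both chambers or both genotypes share. Its error does not measure spread between mice or between pools.

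The values are log2 intensities. A gene was counted in a comparison when the brighter of its 2 arrays reached 5.71, the median of all values in the table, called the floor here. It was called higher or lower at 1.5-fold between genotypes, which is 0.58 on the log2 scale, and at 2-fold between chambers. Array medians lay between 5.66 and 5.75, and the interquartile range was 2.97 for KO atria against 3.18 to 3.21 for the other arrays. Mef2a itself read 10.41 in KO atria against 10.32 in WT atria, and 10.34 in KO ventricles against 10.28 in WT ventricles, so its probe set does not check the genotype labels and the directions below rest on them. The chamber labels were borne out by markers. All 7 atrial muscle markers were at least 2-fold higher in atria than in ventricles in both genotypes, and 5 of 6 ventricular markers in WT and 6 of 6 in KO were at least 2-fold lower. All 8 cardiomyocyte markers were above the floor on the arrays of every comparison.

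Of the 65 genes, 36 reached the floor on all 4 arrays, 7 on some arrays and 22 on none. The 22 included the sperm tail anchors Akap3 and Akap4, the bicarbonate-activated cyclase Adcy10, and all 5 genes of the membrane guanylyl cyclase group (Gucy2c, Gucy2d, Gucy2e, Gucy2f and Gucy2g), which are known from gut, retina and olfactory tissue. Of these Gucy2d had the highest mean, with 4.89 in KO atria, 4.86 in WT atria, 4.66 in KO ventricles and 4.66 in WT ventricles. They also held Pde6a, Pde6b and Pde6c, the catalytic PDE subunits of rod and cone photoreceptors. Pde6d read 9.99 in KO atria, 9.79 in WT atria, 9.74 in KO ventricles and 9.64 in WT ventricles, and encodes a chaperone of lipid-modified proteins rather than a PDE enzyme. The other genes below the floor were Adcy2, Adcy8, Akap14, Akap17b, Gucy1b2, Pde1b, Pde4c, Pde8b, Pde10a, Pde11a and Prkg2. Low values carried a shift of their own. Of the 24 genes below the floor on both atrial arrays 22 had positive KO to WT ratios, with a median of 0.12, beside 0.13 over all genes below the floor there, and no direction is read from such genes.

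In KO against WT atria, which asks how loss of MEF2A relates to expression in the upper chambers, Pde7a and Prkar2b were lower and 0 of the genes were higher. These 2 were among 41 counted genes, or 4.88%, where 3.03% of all 10050 counted genes were called (1.02% higher and 2.01% lower). In KO against WT ventricles Pde3b was higher and Pde7a was lower. These were 2 of 42 counted genes, or 4.76%, where 1.2% of all 9712 were called (0.515% higher and 0.69% lower). Each of these shares rests on 2 genes. The medians lay near 0, at −0.02 for the counted genes and −0.03 for all genes in atria, and at 0.01 and 0.00 in ventricles. Most of the pathway differed little: 32 of the 41 counted genes in atria and 34 of the 42 in ventricles had a log2 ratio within 0.25 of 0. Over all counted genes the shares were 74.1% and 90.5%. The standard deviation of the ratios was 0.30 for the pathway and 0.26 for all genes in atria. In ventricles it was 0.32 and 0.19. The extremes of the pathway there were Pde7a at −1.32 and Pde3b at 1.06. The standard deviation without these 2 genes was not computed, so the wider figure is not read as a trait of the pathway. With the arrays scaled by quantile normalization or by a lowess curve the atrial count became 1 higher and 2 lower, and with median centring the ventricular count became 2 higher and 1 lower. In each case the added gene was Pde7b.

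**Figure D1:**
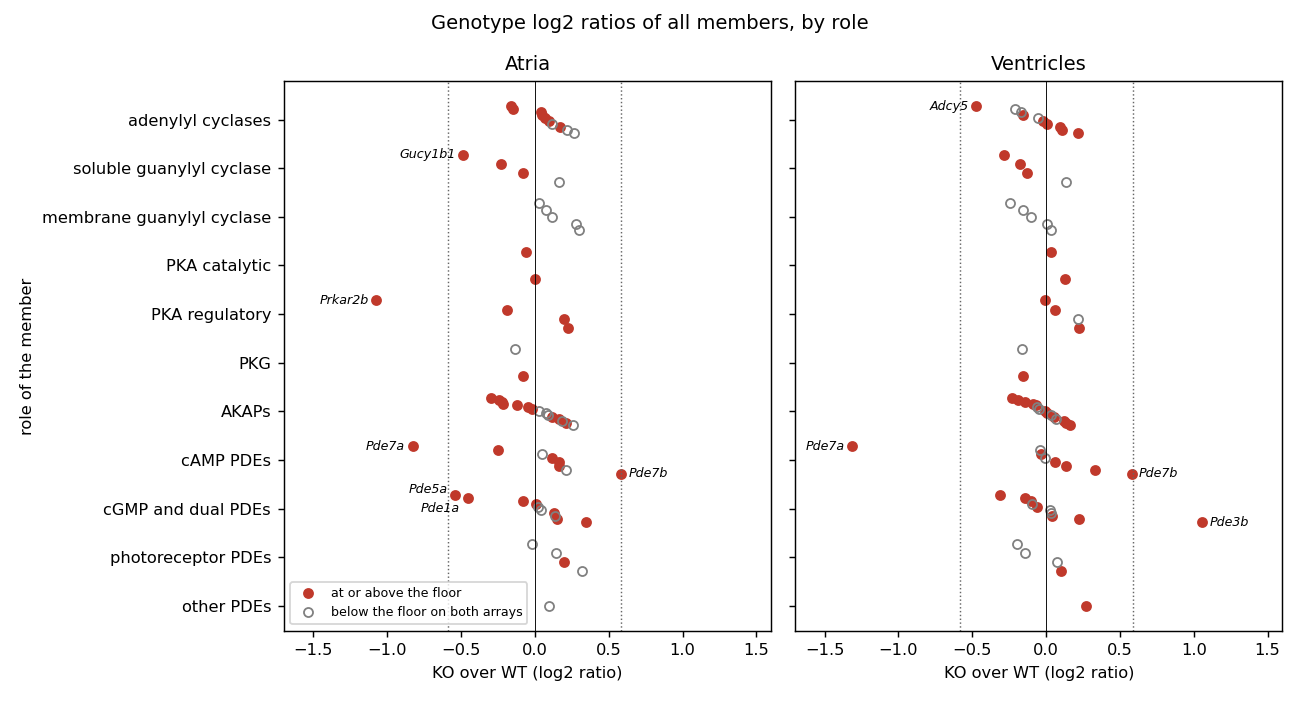
Log2 ratio of KO over WT (x axis) for each of the 65 genes, grouped by role (y axis), in atria (left) and ventricles (right). Red points are genes at or above the floor on at least 1 array of the pair, open points are below it on both, and dotted lines mark 1.5-fold. Most points sit near 0, with Pde7a and Prkar2b lower in KO atria, and Pde7a lower and Pde3b higher in KO ventricles.

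The PDEs specific for cyclic AMP held the gene that was called in both chambers. Pde7a, which encodes a cyclic AMP-specific PDE of high affinity, read 6.99 in KO atria against 7.82 in WT atria, and 6.69 in KO ventricles against 8.0013 in WT ventricles. It was lower in KO in both chambers, by 1.78-fold in atria (log2 ratio −0.83) and 2.49-fold in ventricles (−1.32). Among all counted genes it had rank 79 from the lowest of 10050 in atria and rank 14 from the lowest of 9712 in ventricles. The 2 genotype comparisons share no array, and 24 of the 9436 genes counted in both were lower in both.

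Pde7b, the paralog of Pde7a, went the other way. It read 8.37 in KO atria against 7.79 in WT atria, and 8.26 in KO ventricles against 7.68 in WT ventricles. Its log2 ratio was 0.58 in each chamber, which is 1.4996-fold in atria and 1.49-fold in ventricles and just misses the threshold as applied. It passed in atria with quantile normalization (0.66) and lowess centring (0.63), and in ventricles with median centring (0.60). Its rank was 104 from the highest of 10050 in atria and 52 from the highest of 9712 in ventricles, so both KO pools had less Pde7a and more Pde7b signal than their WT pools. The scale of an array value differs between probe sets, so the summed PDE7 message cannot be read from these values.

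**Figure D2:**
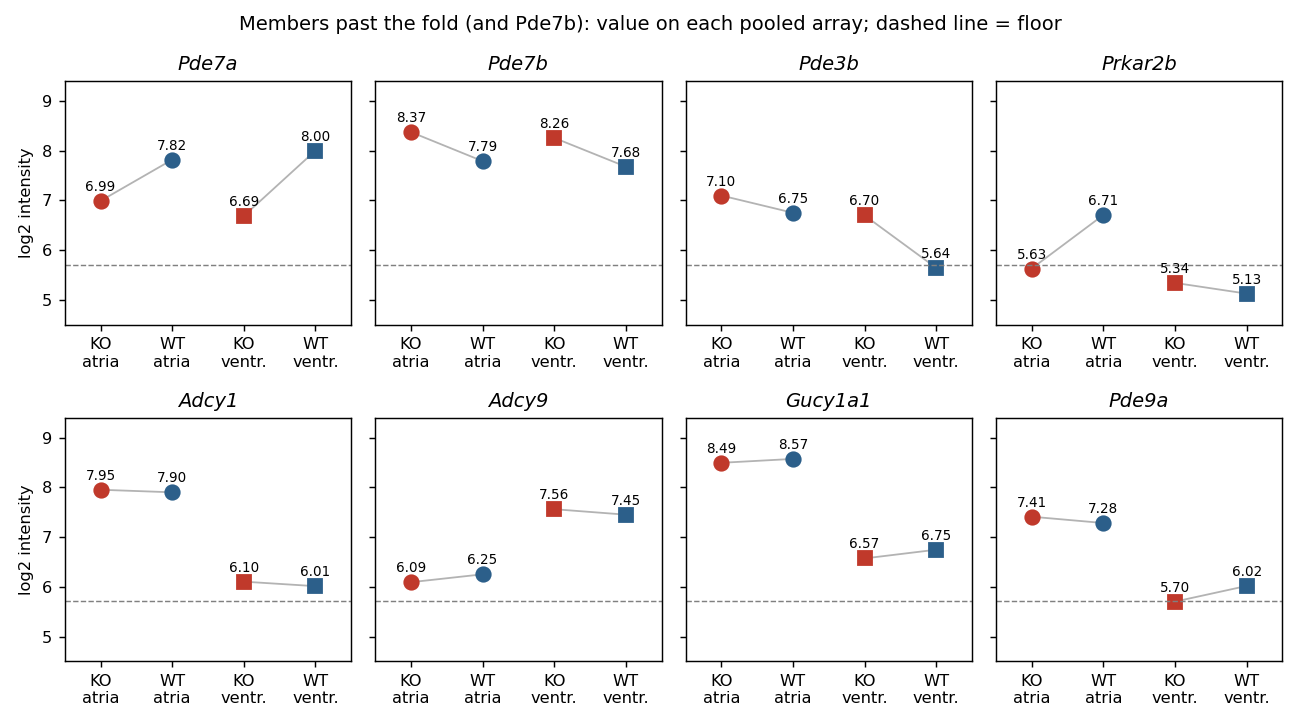
Log2 intensity (y axis) of 8 genes on the 4 pooled arrays (x axis: KO atria, WT atria, KO ventricles, WT ventricles), in red for KO and blue for WT, with circles for atria and squares for ventricles. There are no error bars because each group has 1 array, and the dashed line is the floor of 5.71. Pde7a was lower and Pde7b higher in both KO chambers, Pde3b stood below the floor on the WT ventricles array alone, and Prkar2b stood above it on the WT atria array alone.

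The remaining cyclic AMP-specific enzymes stayed inside 1.5-fold. Pde4a, Pde4b and Pde4d belong to the PDE4 family, the rolipram-sensitive PDEs that act close to beta-adrenergic receptors and calcium release channels. Pde4a read 8.15 in KO atria against 7.99 in WT atria, and 8.21 in KO ventricles against 7.88 in WT ventricles (log2 ratios 0.16 and 0.33). Pde4b read 8.25 in KO atria against 8.50 in WT atria, and 8.04 in KO ventricles against 7.91 in WT ventricles (−0.25 and 0.13). Their order between genotypes thus differed by chamber for Pde4b and not for Pde4a. Pde4d had ratios of 0.12 and 0.06. Pde8a, an enzyme of very high affinity for cyclic AMP, had ratios of 0.17 and −0.03.

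Among the PDEs that take cyclic GMP or both messengers, Pde3b stood out in ventricles. It encodes a membrane-bound PDE that cyclic GMP inhibits and that is best known from adipocytes and insulin action. It read 7.10 in KO atria against 6.75 in WT atria, and 6.70 in KO ventricles against 5.64 in WT ventricles. The ventricular difference was 2.08-fold (log2 ratio 1.06), at rank 12 from the highest of 9712 genes, and the atrial ratio was 0.35. The WT ventricles value lay just below the floor. Pde3a, the cardiac paralog, differed little, with 8.65 in KO atria against 8.64 in WT atria and 8.99 in KO ventricles against 9.05 in WT ventricles.

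The other cyclic GMP-related PDEs did not reach 1.5-fold. Pde5a, the sildenafil-sensitive enzyme, read 5.91 in KO atria against 6.45 in WT atria, and 5.83 in KO ventricles against 5.97 in WT ventricles (ratios −0.54 and −0.14). Pde1a, a calcium-calmodulin-dependent PDE, had ratios of −0.46 and −0.10, while its relative Pde1c had −0.08 and 0.22. Pde2a, which cyclic GMP stimulates, had 0.15 and 0.04, and the cyclic GMP-specific Pde9a had 0.13 and −0.31. Pde12, whose product acts on short RNA chains and not on cyclic nucleotides, reached the floor only in KO ventricles. It read 5.47 in KO atria against 5.37 in WT atria, and 5.92 in KO ventricles against 5.65 in WT ventricles.

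Of the PKA subunits the regulatory gene Prkar2b differed, in atria. Prkar2b encodes the RIIβ subunit, which is abundant in adipose tissue and brain. It read 5.63 in KO atria against 6.71 in WT atria, and 5.34 in KO ventricles against 5.13 in WT ventricles. The atrial value was 2.11-fold lower (log2 ratio −1.08, rank 41 from the lowest of 10050), and only the WT atria array reached the floor. The subunits better known from heart stayed close. Prkar1a (RIα) read 10.79 in KO atria against 10.57 in WT atria and 10.85 in KO ventricles against 10.63 in WT ventricles, ratios of 0.22 in both. Prkar2a (RIIα) had ratios of −0.19 and −0.01. The catalytic subunit gene Prkaca read 8.90 in KO atria against 8.90 in WT atria, and 9.50 in KO ventricles against 9.37 in WT ventricles. The other catalytic gene, Prkacb, had ratios of −0.06 and 0.03.

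Markers of other cell types were read beside the Prkar2b difference. Among 9 adipocyte markers in KO against WT atria 3 had negative ratios, with Retn at −1.07, Adipoq at −0.73 and Fabp4 at −0.26. The other 6 had positive ratios, from 0.04 (Plin1) to 0.29 (Cidea), and the median of all 9 was 0.10. Over the 4 counted markers 2 ratios were positive and 2 negative, with a median of −0.08. The summed log2 values of the 9 were 56.8 in KO atria against 58.0 in WT atria. The defining markers Adipoq, Plin1, Cidec and Lep, and also Ucp1, were below the floor on both atrial arrays, so no direction is read from them. All 8 fibroblast markers were negative, with a median of −0.44 and sums of 70.1 in KO atria against 74.0 in WT atria. In ventricles, where Pde3b differed, Cidea was called higher among the adipocyte markers (0.62), the other 8 lay between −0.44 and 0.08, and the sums were 58.4 in KO ventricles against 58.6 in WT ventricles. Of 8 skeletal muscle markers 4 had negative and 4 had positive ratios in KO against WT atria, with a median of 0.01. Among them 3 were counted and 2 were called lower, Tnnt3 (5.35 in KO atria against 6.0026 in WT atria) and Tnni2 (5.79 against 6.37). The third, Ckm, had a ratio of −0.01. The part of these cell types in either result was not tested. In tissue RNA, fewer cells of a type and less RNA per cell cannot be told apart.

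Adenylyl cyclases showed no call between genotypes in either chamber. Adcy5 and Adcy6 are the calcium-inhibited forms that serve beta-adrenergic signalling in heart muscle. Adcy5 read 8.14 in KO atria against 8.10 in WT atria, and 7.68 in KO ventricles against 8.16 in WT ventricles. Its ventricular log2 ratio of −0.48, the lowest of the 7 counted cyclases there, stayed short of 1.5-fold. Adcy6 read 9.15 in KO atria against 9.29 in WT atria and 8.90 in KO ventricles against 9.05 in WT ventricles, a ratio of −0.15 in both. The others ranged from −0.16 (Adcy9) to 0.17 (Adcy4) in atria and from −0.02 (Adcy7) to 0.22 (Adcy4) in ventricles.

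The soluble guanylyl cyclase, the receptor for nitric oxide, is a dimer of an alpha and a beta subunit. Its 3 counted genes had negative ratios in both chambers, with 0 called. Gucy1b1, the common beta subunit, read 6.61 in KO atria against 7.09 in WT atria, and 6.17 in KO ventricles against 6.46 in WT ventricles (−0.49 and −0.29). Gucy1a1 had ratios of −0.08 and −0.18, and Gucy1a2 of −0.23 and −0.13. Prkg1, the PKG gene of smooth muscle and heart, read 6.52 in KO atria against 6.60 in WT atria, and 6.31 in KO ventricles against 6.47 in WT ventricles. Fibroblast markers were negative in 8 of 8 cases in each chamber, with medians of −0.44 and −0.15, while 12 smooth muscle and pericyte markers had medians of 0.00 over 11 counted in atria and −0.06 over 10 counted in ventricles. Of the smooth muscle markers in atria, Cnn1 was called lower (−1.29) and Acta2 higher (0.61), and 0 were called in ventricles. The part of these cells was not tested.

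Of 15 AKAP genes, 10 were counted in atria and 11 in ventricles, and 0 were called in either. Their ratios ran from −0.29 to 0.21 in atria and from −0.23 to 0.16 in ventricles. Akap6, which holds PKA at the nuclear envelope of muscle cells, read 9.14 in KO atria against 9.36 in WT atria and 9.15 in KO ventricles against 9.24 in WT ventricles. Akap13 had ratios of −0.21 and −0.19. Akap1, the anchor of the mitochondrial outer membrane, had 0.21 and 0.16. Akap8 was at the low end in atria (−0.29), and Akap5, the membrane anchor that joins PKA to calcium channels, at the low end in ventricles (−0.23).

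**Figure D3:**
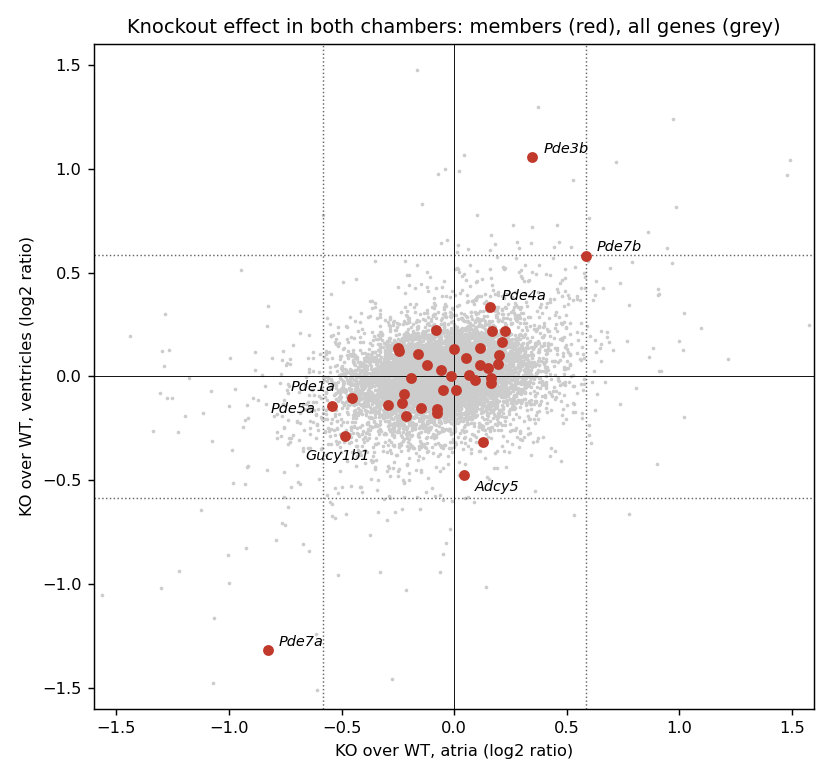
Log2 ratio of KO over WT in atria (x axis) against that in ventricles (y axis) for the 40 genes counted in both comparisons (red) and all 9436 genes counted in both (grey). Dotted lines mark 1.5-fold, and Prkar2b is not drawn because it was below the floor in ventricles. Pde7a lies apart at lower left, Pde7b at the crossing of the upper thresholds and Pde3b above the ventricular threshold. A few grey points lie outside the axes.

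Across both chambers, 27 of the 40 genes counted in both had the same sign (67.5%), where 57.7% of all 9436 genes did. Of the 40, 1 was lower in both (Pde7a) and 0 were higher in both. Prkar2b was not counted in ventricles.

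The 4 arrays also allowed 1 fit with limma of genotype plus chamber, in which the only spread is the amount by which the genotype ratio differs between the chambers. It has 1 residual degree of freedom, moderated over the 10326 genes that reached the floor on any array, and it was added after the values were seen. A difference between the KO and WT pools that both chambers share counts as genotype effect in this fit. Its SE and adjusted p therefore do not measure spread between mice or pools. For KO over WT averaged over both chambers, 2 of the 43 tested genes passed an adjusted p of 0.05, where 0.833% of all tested genes did. Pde7a was lower, with a mean log2 ratio of −1.07 ± 0.119 (SE) and a limma adjusted p of 0.0018. Pde7b was higher, with 0.582 ± 0.0911 (SE) and a limma adjusted p of 0.0138. Both calls needed the spread to be modelled as a trend with intensity: without that trend 0 of the genes passed (6 had an unadjusted limma p under 0.05), and 18 of all genes did in place of 86. Pde3b, at 0.702 ± 0.151 (SE), had a limma adjusted p of 0.0666, and Gucy1b1, at −0.388 ± 0.11 (SE), one of 0.175. Prkar2b, whose difference lay in atria, had an adjusted p of 0.599.

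Promoter sequences were read for the differing genes that had an entry in the RefSeq promoter table (GRCm38.p6), each running from 250 bases before to 50 bases after a transcript start. Pde7b and Prkar2b are shown for the genotype differences, Adcy1 and Adcy9 for the chamber differences described below, and Prkar1a because it alone held a complete cyclic AMP response element (TGACGTCA), the site of CREB. Capitals mark the half-site TGACG on either strand, complete elements included. Where a gene had several starts the first listed is shown, except for Prkar1a, where the window with the element is shown.
Pde7b (chr10:20548279-20548578, - strand): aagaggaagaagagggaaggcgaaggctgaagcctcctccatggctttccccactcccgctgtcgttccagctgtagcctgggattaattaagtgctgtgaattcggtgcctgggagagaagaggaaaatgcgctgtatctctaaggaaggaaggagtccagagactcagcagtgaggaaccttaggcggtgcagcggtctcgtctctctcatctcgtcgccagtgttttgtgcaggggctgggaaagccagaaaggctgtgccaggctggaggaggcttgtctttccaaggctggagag
Prkar2b (chr12:32061228-32061527, - strand): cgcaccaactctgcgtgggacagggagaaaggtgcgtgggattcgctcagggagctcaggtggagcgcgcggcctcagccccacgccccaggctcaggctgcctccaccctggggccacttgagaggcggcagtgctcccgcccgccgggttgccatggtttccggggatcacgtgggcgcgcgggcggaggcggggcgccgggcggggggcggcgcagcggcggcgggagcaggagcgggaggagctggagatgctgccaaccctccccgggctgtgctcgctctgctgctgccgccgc
Adcy1 (chr11:7063183-7063482, + strand): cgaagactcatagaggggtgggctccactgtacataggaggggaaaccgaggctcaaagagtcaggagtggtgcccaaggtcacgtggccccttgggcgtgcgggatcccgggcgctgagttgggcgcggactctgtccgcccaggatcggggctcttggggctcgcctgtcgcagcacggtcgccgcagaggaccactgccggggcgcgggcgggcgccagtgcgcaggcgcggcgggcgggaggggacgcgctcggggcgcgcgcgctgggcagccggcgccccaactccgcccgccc
Adcy9 (chr16:4420449-4420748, - strand): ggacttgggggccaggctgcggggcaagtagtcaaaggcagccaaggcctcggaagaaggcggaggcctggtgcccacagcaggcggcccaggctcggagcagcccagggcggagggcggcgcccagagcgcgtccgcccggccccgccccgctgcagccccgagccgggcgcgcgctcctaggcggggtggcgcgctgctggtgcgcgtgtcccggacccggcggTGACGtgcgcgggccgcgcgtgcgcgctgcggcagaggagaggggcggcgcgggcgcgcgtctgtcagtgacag
Prkar1a (chr11:109650612-109650911, + strand): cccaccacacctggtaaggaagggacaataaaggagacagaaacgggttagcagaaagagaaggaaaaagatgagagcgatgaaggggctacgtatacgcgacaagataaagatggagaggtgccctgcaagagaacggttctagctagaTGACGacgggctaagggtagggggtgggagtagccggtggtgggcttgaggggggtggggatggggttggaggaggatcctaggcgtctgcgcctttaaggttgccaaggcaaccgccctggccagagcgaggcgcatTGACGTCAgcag

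Entries were present for 54 of the 65 genes, with 99 windows. Pde7a and Pde3b were among the genes without an entry, so no motif was searched for in their promoters. The consensus of MEF2 itself was found on neither strand in any of the 99 windows, against 3.19% of all 32851 windows in the table. TGACGTCA occurred in 2 of the 99 windows (2.02%), both of Prkar1a, against 1.79% of all windows. In the printed Prkar1a window it begins 39 bases after the start. The half-site TGACG, which lies inside TGACGTCA, occurred in 20 of the 99 windows (20.2%), against 20.8% of all windows. Counted by gene, which favours genes with several windows, it was in 18 of the 54 genes (33.3%), against 23.0% of all genes. Adcy9 held 1 copy, 24 bases before its start, and the printed windows of Pde7b, Prkar2b and Adcy1 held none. Such matches describe the letters of these windows.

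Atria against ventricles asks which members separate the chambers. In WT, 6 of 42 counted genes were called (14.3%), 5 higher and 1 lower in atria, where 6.1% of all 10034 counted genes were called (3.89% higher and 2.21% lower). In KO, 4 of 42 were called (9.52%), 3 higher and 1 lower, where 6.3% of all 10120 were called (3.46% higher and 2.85% lower). With median centring the KO split over all genes turned to 314 higher and 353 lower, in place of 350 and 288. Adcy1, Gucy1a1 and Pde9a were higher in atria in both genotypes and Adcy9 was lower in both. In the limma fit of genotype plus chamber, 17 of the 43 tested genes passed an adjusted p of 0.05 for atria over ventricles, 10 higher and 7 lower, where 38.8% of all tested genes passed. Adcy1 had a mean log2 ratio of 1.87 ± 0.0971 (SE, limma adjusted p of 7.79e-08) and Adcy9 one of −1.33 ± 0.107 (SE, limma adjusted p of 2.74e-06). The median over the counted genes was 0.11 in WT, beside −0.01 over all genes, and 0.06 in KO, beside −0.05. The WT and KO chamber comparisons share no array with each other, but each shares its arrays with the genotype comparisons, so changes in a chamber ratio restate the genotype ratios.

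Adenylyl cyclase genes parted by chamber. Adcy1, a calcium-calmodulin-stimulated cyclase best known from neurons, read 7.95 in KO atria against 6.10 in KO ventricles, and 7.90 in WT atria against 6.01 in WT ventricles. It was higher in atria by 3.60-fold in KO and 3.70-fold in WT. Adcy9, a cyclase that is poorly activated by forskolin, read 6.09 in KO atria against 7.56 in KO ventricles, and 6.25 in WT atria against 7.45 in WT ventricles. It was lower in atria by 2.77-fold in KO and 2.30-fold in WT. The other 5 counted cyclases lay between 0.07 and 0.46 in KO and between −0.06 and 0.24 in WT on the log2 scale.

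On the cyclic GMP side the alpha subunit of the nitric oxide receptor and a cyclic GMP-specific PDE were both higher in atria. Gucy1a1 read 8.49 in KO atria against 6.57 in KO ventricles, and 8.57 in WT atria against 6.75 in WT ventricles, which is 3.79-fold and 3.54-fold higher. Its partner Gucy1b1 had log2 ratios of 0.43 in KO and 0.63 in WT, and the alternative alpha subunit gene Gucy1a2 leaned the other way with −0.66 and −0.56. Pde9a read 7.41 in KO atria against 5.7027 in KO ventricles, and 7.28 in WT atria against 6.02 in WT ventricles. Its ratio was 3.27-fold in KO and 2.40-fold in WT, with the KO ventricles value just below the floor.

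Pde3b and Prkar2b passed 2-fold between WT chambers and not between KO chambers. Pde3b had log2 ratios of 0.40 in KO and 1.11 in WT (2.16-fold), and Prkar2b of 0.29 in KO, where both arrays were below the floor, and 1.58 in WT (2.99-fold). For Pde3b the ventricular value differed more between genotypes than the atrial value, and for Prkar2b the atrial value did. The difference between genotypes in these chamber ratios had no test. Pde7a and Pde7b were not called between chambers, with chamber ratios of 0.30 and 0.12 in KO and −0.18 and 0.11 in WT.

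**Figure D4:**
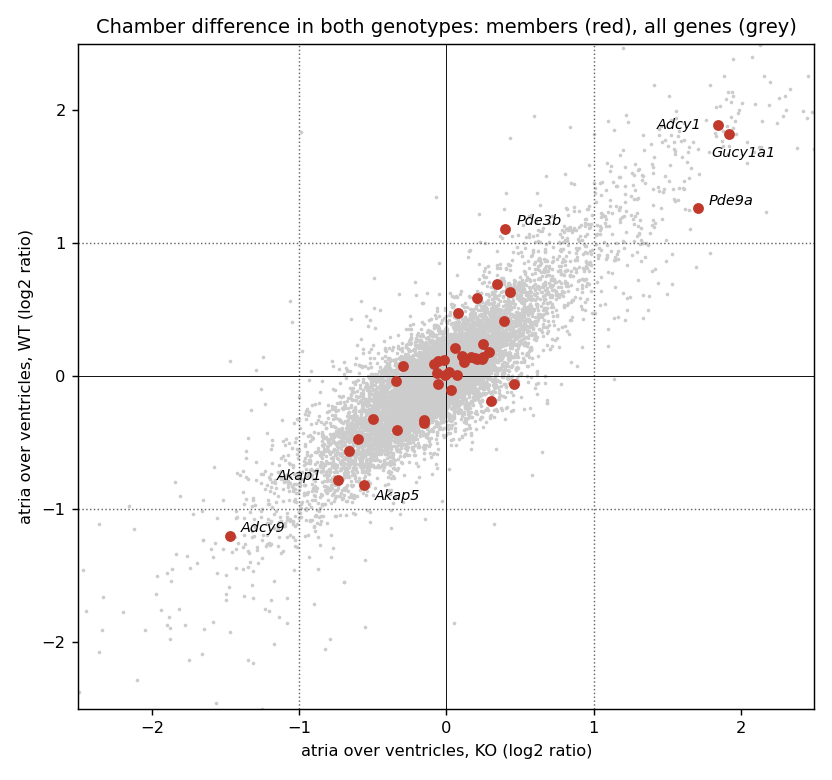
Log2 ratio of atria over ventricles in KO (x axis) against that in WT (y axis) for the 41 genes counted in both comparisons (red) and all 9828 genes counted in both (grey). Dotted lines mark 2-fold, and Prkar2b is not drawn because both KO arrays were below the floor. Adcy1, Gucy1a1 and Pde9a lie beyond 2-fold at upper right, Adcy9 at lower left, and Pde3b passes it in WT only. Some grey points lie outside the axes.

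Of the kinase subunits and anchors other than Prkar2b, 0 passed 2-fold between chambers. Prkaca was at −0.60 in KO and −0.47 in WT, and Prkar2a at −0.50 and −0.32, both lower in atria. Akap1 read 8.01 in KO atria against 8.75 in KO ventricles, and 7.80 in WT atria against 8.58 in WT ventricles (−0.73 and −0.78). Akap5 was at −0.56 and −0.82, below the floor in atria, and Akap13 was at 0.39 and 0.42. Pde3a was at −0.33 and −0.41 and Pde1a at 0.34 and 0.69.

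Cell markers other than those of muscle also separated the chambers. Of 7 epicardial and mesothelial markers 6 were at least 2-fold higher in atria in KO and 5 in WT, with sums of 52.1 in KO atria against 39.5 in KO ventricles and 51.3 in WT atria against 38.8 in WT ventricles. Of 8 fibroblast markers all had positive ratios, with medians of 0.47 in KO and 0.83 in WT. The 8 endothelial markers were mixed, with 5 positive and 3 negative ratios in KO (median 0.15) and 4 and 4 in WT (median 0.13). Among them Vwf was at least 2-fold higher in atria in both genotypes. Smooth muscle and pericyte markers had medians of −0.36 in KO and −0.41 in WT. Among them Cnn1 was higher in atria (1.20 in KO and 2.47 in WT), Acta2 (−1.03 and −1.28) and Abcc9 (−1.88 and −1.97) were lower in both, and Rgs5 was lower in WT (−1.16). The ventricular values of Cnn1 were below the floor. Of the neuron and Schwann cell markers, 5 were measured and 0 reached the floor in any comparison. The part of these cell types in the chamber ratios of Adcy1, Gucy1a1, Pde9a and the others was not tested.

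Partners of the pathway outside the symbol families were taken from 4 lists. Of 31 measured receptors, G proteins, channels and inhibitors of the pathway, Gnai1, an inhibitory G protein, was called lower in KO atria (6.62 against 7.26 in WT atria). It was 1 call among 18 counted, where 3.03% of all genes were called. In ventricles 2 of 20 counted were called, where 1.2% of all genes were, and both are pacemaker channel genes gated by cyclic AMP. Hcn2 was higher (7.69 in KO ventricles against 7.05 in WT ventricles) and Hcn4 lower (6.13 against 6.93). Both were also lower in WT atria than in WT ventricles, as was Cnga3, and 0 of the list were higher there. These were 3 of 20 counted, where 2.21% of all genes were lower. Cnga3 read 4.76 in WT atria against 5.76 in WT ventricles, the only array on which it reached the floor, and just above it. It was below the floor on both KO arrays and was not counted there. In KO, Hcn2 was lower in atria (−1.74), while Hcn4 at −0.38 was not called. That was 1 call among 19 counted, where 2.85% of all genes were lower. The natriuretic peptide receptor cyclases Npr1 and Npr2 had KO to WT ratios of −0.06 and −0.02 in atria and −0.02 and −0.05 in ventricles. The cyclic AMP sensor Rapgef3 (EPAC1) had 0.17 and −0.02, and the PKA inhibitor Pkia −0.12 and −0.23.

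Of 16 measured anchors without an AKAP symbol, 0 were called between genotypes. Sphkap, an anchor of type I PKA, read 7.48 in KO atria against 3.97 in KO ventricles and 7.87 in WT atria against 3.97 in WT ventricles. Both ventricular values were below the floor, so the size of the difference is not read from them. Synm, the intermediate filament protein synemin, was called higher in atria in WT (1.14) and not in KO (0.92). Of 11 counted anchors 2 were called higher in atria in WT and 1 in KO, where 3.89% and 3.46% of all genes were.

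Of 17 PKA and PKG substrate genes, 0 were called between genotypes in either chamber. Phospholamban (Pln), the calcium pump regulator, had KO to WT ratios of 0.08 and 0.03, and the ryanodine receptor gene Ryr2 of −0.20 and −0.13. Between chambers Ppp1r1b, the PKA-regulated phosphatase inhibitor DARPP-32, was higher in atria (2.86 in KO and 2.83 in WT), and the L-type calcium channel gene Cacna1c was lower (−1.0028 and −1.02). Ppp1r1b read 5.58 in KO ventricles and 5.52 in WT ventricles, below the floor, which limits the size of its ratios. Hspb6, the small heat shock protein HSP20, was called lower in atria between KO chambers (−1.02). Between WT chambers its ratio of −0.94 stayed short of 2-fold. Of the 17 genes, all counted, 1 was called higher and 1 lower in WT, where 3.89% and 2.21% of all genes were. In KO 1 was higher and 2 were lower, where 3.46% and 2.85% of all genes were.

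Of 13 genes known as CREB targets, 10 were counted in atria and 7 in ventricles. Nr4a1 and Nr4a3, orphan nuclear receptors of the immediate early class, were called lower in KO atria, where 2.01% of all genes were, and 0 were called in ventricles. Nr4a1 read 7.58 in KO atria against 8.27 in WT atria, and Nr4a3 read 5.91 against 6.62. The median of the 10 counted was −0.16 in atria, and that of the 7 counted in ventricles was 0.09. Between chambers 5 of 10 counted were higher in atria in WT, where 3.89% of all genes were, with Nr4a3 at 1.82, Nr4a1 at 1.46, Fos at 1.27 and Egr1 at 1.09, and 2 of 9 in KO, where 3.46% of all genes were. The ventricular values of Nr4a3 and Fos were below the floor, which limits the size of their ratios.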

How the data were processed

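Each of the 4 groups had 1 array of RNA pooled from 7 mice. Per the labels' protocols, RNA was extracted with Trizol, pooled in equal molar amounts and labelled with biotin. The table that the authors deposited holds a log2 intensity for each probe set, made with RMA and affy per the submitters' processing notes. Tool versions and the genome build are not given in the sources used here, and scanner files were not used. RMA compresses differences near background, and the 4 columns did not share 1 distribution.

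Of 21212 probe sets, 18786 had 1 symbol in the platform annotation, updated through RefSeq gene numbers (18775), accessions (6) or kept (5), and 2426 were left unnamed. For 5 symbols with several probe sets the one with the highest mean was kept, which left 18781 genes. All 65 members had 1 probe set each. Ratios are differences of log2 values, computed in Python 3.11.15 with pandas 2.3.3 and numpy 2.4.6. Calls used 1.5-fold (genotype) or 2-fold (chamber) and a floor at the median of all values, 5.71. The counting step was checked on simulated data.

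Differences between 2 arrays were not tested. A limma 3.58.1 fit of genotype plus chamber over the 4 arrays, with 1 residual degree of freedom, was added after the values were seen. It takes any dependence of the genotype effect on the chamber as error. Of 4 moderation settings the intensity trend was chosen on simulated data, where it gave the fewest false calls but still somewhat more than the nominal share. The simulated noise was drawn with the spread of the trend fit itself, which favours that setting. The simulation therefore cannot decide between the settings. Precision is limited by how few arrays there were. The members and lists were chosen with earlier results of these data known. All members could be named. Values on every array are given for those past the fold in any comparison and for 1 member per role, and listed partners are named where past the fold, up to 4 a direction, and a few others (Npr1, Npr2, Rapgef3, Pkia, Pln, Ryr2) for their role, chosen after their values were seen. Alternatives were no floor, a floor at the 75th percentile, the other fold, median centring, quantile normalization and lowess centring (statsmodels 0.14.6, span 0.3). Promoter windows came from RefSeq.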

Additional observations from a re-analysis of the deposited data

Results flagged for a closer look

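Of the genes called between genotypes, Prkar2b had ratios of opposite sign in the chambers, −1.08 in atria and 0.22 in ventricles. The atrial minus the ventricular log2 ratio was −1.29. It read 5.63 in KO atria against 6.71 in WT atria, and 5.34 in KO ventricles against 5.13 in WT ventricles, so both ventricular arrays lay below the floor and no direction is read from them. The difference between chambers was not tested.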

How the results depend on the processing

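No paired analysis was possible because no group had replicate arrays to number, other than the fit with chamber or genotype as a block, which the report gives. Leaving out an array was not run. In that fit, 0 of the genes passed for KO over WT without the intensity trend, with or without robust moderation, in place of 2, and 16 to 17 passed for atria over ventricles under all 4 settings. With a floor at the 75th percentile, 1 of the genes was called between genotypes in atria and 1 in ventricles, Pde7a in both, in place of 2 and 2, because Prkar2b and Pde3b were not bright enough to be counted. At 2-fold, 1 was called in atria (Prkar2b). At 1.5-fold, 11 of 42 counted were called between WT chambers in place of 6, where 16.3% of all counted genes were. Between KO chambers 7 of 42 were called in place of 4, where 17.9% of all counted genes were. The KO split became 3 higher and 4 lower with Akap1, Gucy1a2 and Prkaca added. The other counts stayed within 1.5 times. Without a floor, calls over all genes became 558 in atria (289 higher and 269 lower) in place of 305, and 220 in ventricles in place of 117. With the floor at the 75th percentile they became 115 and 56. At the other fold they were 65 in atria and 36 in ventricles at 2-fold, and 1632 between WT chambers and 1815 between KO chambers at 1.5-fold. Of 96 ratios of single genes recomputed with 3 scalings, 93 kept their side of the threshold, 3 passed it (Pde7b, values above) and 0 of the called ones changed sign. Across settings the median over counted genes ran from −0.03 to 0.07 in atria, from −0.01 to 0.06 in ventricles, from 0.01 to 0.14 between WT chambers and from −0.01 to 0.12 between KO chambers, so its sign is not fixed except between WT chambers. Values near the floor, such as Prkar2b in KO atria and Pde3b in WT ventricles, limit the size of their folds.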
